A study of Drosophila melanogaster with 2 samples.

Results

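The genes described here encode 10 regulators of the response to ecdysone, the steroid hormone of insect moulting and metamorphosis: EcR, usp, br, Eip74EF, Eip75B, Eip93F, Hr3, Hr4, Hr39 and ftz-f1. They were taken by symbol from the Ensembl annotation of the BDGP6 assembly, 10 of 13968 protein-coding genes, and all 10 symbols matched 1 gene each. Binding was mapped by chromatin immunoprecipitation and sequencing in embryos of mixed sex, 0 to 24 hours old, of a Drosophila melanogaster line that stably carries zld (vielfaltig, vfl) with GFP at the C-terminus of its product. An anti-GFP antibody was used by the description of the samples, while their antibody field reads vfl. There was 1 group, with biological replicates numbered 2 and 3 and no contrast between groups, so the question at these genes was where the tagged protein was found and how far the replicates matched. The embryos span most of embryonic development and all tissues, and binding in few cells cannot be told apart from weak binding in many.

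Zelda, the product of zld, is a zinc finger factor of the early embryo that opens chromatin at enhancers before the zygotic genome is switched on, and its textbook site is CAGGTAG. The ecdysone receptor is a pair of nuclear receptors, EcR, which binds the hormone, and Ultraspiracle, the product of usp. Once bound by hormone it switches on early genes (br, Eip74EF, Eip75B), whose products act with the nuclear receptors Hr3, Hr4, Hr39 and FTZ-F1 and with Eip93F to time the later steps. The hormone pulses are best known from larvae and pupae, but a pulse also occurs in the middle of embryonic development, and maternal FTZ-F1 works with the pair-rule protein Ftz in the early embryo.

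The deposited lists hold peaks, not read counts, so read depth is unknown. A relaxed list of 30000 peaks exists for each replicate and for both together (the pooled list), and 2876 peaks passed the authors' threshold for reproducibility. Those 2876 stand in the pooled list with the same signal, from 61.8 to 1231. The signal is the authors' own score of a peak and is compared only within a list, where rank 1 is the strongest. Each summit within a gene or 5 kb to either side of it was listed, with the nearest of the gene's annotated starts and the nearest start of any protein-coding gene. Coordinates are on dm6 and counted from 1.

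All 10 genes had a thresholded summit in the gene extended by 5 kb, 24 summits in all, against 40.7% of all protein-coding genes. These genes are long, with a median of 63.0 kb against 2.16 kb over all protein-coding genes, and a long gene has more room for a summit. Among the 1020 protein-coding genes of 20 kb or more, 51.1% had one. The summits amounted to 3.49 per 100 kb of the extended genes, against 2.15 per 100 kb of the chromosome arms. No test over the list was made, because its members were chosen with results known.

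The 24 summits fell unevenly. Hr4 had 7, Eip75B 4, Hr3 and ftz-f1 3 each, EcR 2, and usp, br, Eip74EF, Eip93F and Hr39 1 each. At 7 genes at least 1 summit had the gene's own start as the nearest (16.2% of all protein-coding genes did). At br, Eip74EF and Eip93F the lone summit was nearest to the start of a neighbour. Of the 24 summits, 15 (62.5%) lay in an intron more than 500 bp from any protein-coding start, against 23.8% of all thresholded summits. Another 9 (37.5%) lay within 500 bp of such a start, against 64.5% of all thresholded summits, and 4 of these 9 were at an own start. No summit lay in a coding exon. The shares given for comparison, 16.2%, 23.8% and 64.5%, were not matched for gene length. An intronic share over long genes was computed only for pooled relaxed summits, at any distance from a start. It was 63% in protein-coding genes of 20 kb or more, against 67.2% in the set. The set includes usp, a gene shorter than 20 kb, with 9 pooled relaxed summits and 0 of them in an intron. Whether the thresholded summits of the set differ in place from those of other long genes was not tested.

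**Figure D1:**
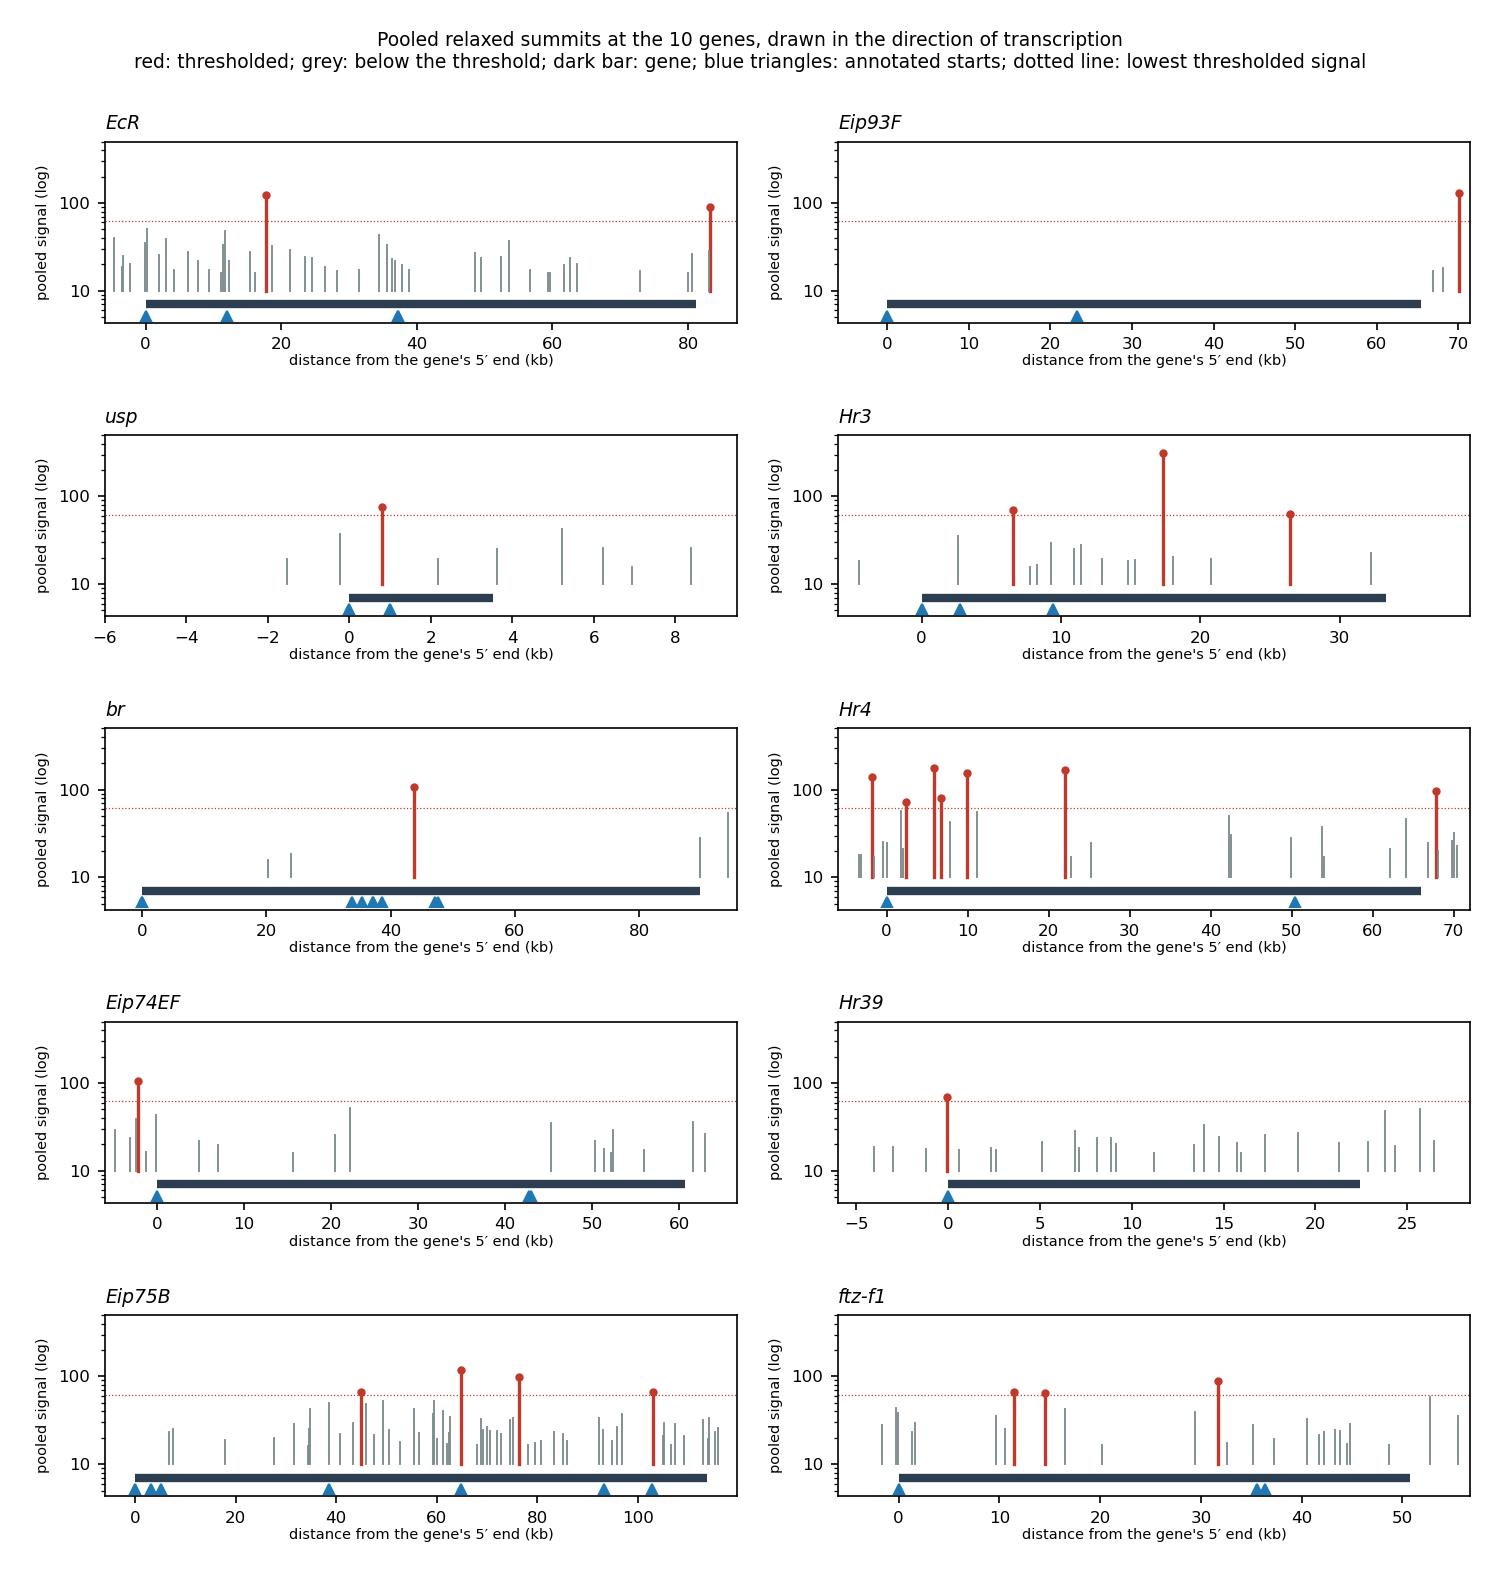
Pooled relaxed summits at each of the 10 genes. The horizontal axis is the distance from the gene's 5′ end in kb in the direction of transcription, and the vertical axis is the authors' pooled signal on a log scale. Red stems with dots are thresholded summits, grey stems are summits below the threshold, the dark bar is the gene, blue triangles are annotated starts and the dotted line is the lowest thresholded signal, 61.8. Hr4 carries 5 of its 7 thresholded summits in the first part of the gene body, while the bodies of br and Eip93F are nearly or fully empty.

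The receptor pair differed in where it was bound. EcR, on arm 2R from 6087873 to 6169087 on the minus strand, encodes the hormone receptor and has 4 annotated starts. Its strongest summit, at position 6151307, lay in an intron 5.82 kb downstream of the start of transcripts RD and RE. The signal there was 122 in the pooled list (rank 762), 91.9 in replicate 2 (rank 456) and 30.6 in replicate 3 (rank 2597). The other thresholded summit in the window, at 6085787 with signal 89.9, lay beyond the 3′ end of EcR and 162 bp upstream of Ars2, which encodes an RNA processing factor. None of the 4 EcR starts had a thresholded summit within 1 kb. Their strongest relaxed summits had signal 49.9 at the RA start (rank 4080), 48.3 at the RD and RE start (rank 4287), and 22.9 for both the RB and RC start and the RG start (the same summit, rank 15849).

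By contrast usp, a short gene of 3.5 kb on X (2038798 to 2042311, minus strand), was bound beside its start. Its summit at 2041499 lay 187 bp upstream of the RA start, in the 5′ UTR of the longer transcript RB. The signal was 75.6 in the pooled list (rank 1967), 34.7 in replicate 2 (rank 3015) and 48.6 in replicate 3 (rank 925). Replicate 2 alone would place the summit outside its strongest 2876. The start of CG4313, on the other strand, lay 369 bp away on the far side of the summit, so the summit stands between divergent starts.

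The early genes br and Eip74EF had no thresholded summit at a start of their own. The br gene, which encodes the Broad zinc finger proteins of the pupal switch, spans 89.7 kb of X (1575132 to 1664869, plus strand) and has 9 starts. None of the 9 had a pooled relaxed summit within 1 kb, and the replicates' lists gave 1 weak summit, in replicate 2, 593 bp from the RH start (rank 20819). The window held 5 pooled relaxed summits, 0.501 per 10 kb. Only 2 of them, with signal 18.4 or less, were nearer to a br start than to any other. The thresholded summit, at 1618850 in an intron of br, lay 695 bp upstream of a start of Mur2B, a mucin-related gene on the other strand, and 3.46 kb from the nearest br start. It had signal 107 in the pooled list (rank 990), 71.8 in replicate 2 (rank 793) and 35.4 in replicate 3 (rank 1890).

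Eip74EF, which encodes an ETS-domain transcription factor, spans 60.7 kb of 3L (17558672 to 17619325, minus strand). The thresholded summit in its window, at 17621584 with signal 107, was 2.26 kb upstream of the gene, between starts of Vps60, an ESCRT subunit gene, that lay 41 bp and 79 bp away, with the start of anchor 240 bp away on the other side. Its rank was 1811 in replicate 2 and 594 in replicate 3. At the gene's own distal start (RA, RC and RE) the strongest relaxed summit lay 126 bp upstream with signal 43.8, at pooled rank 5050 and ranks 5552 and 5177 in replicates 2 and 3. The RB and RD starts had no pooled summit within 1 kb, but each replicate listed a weak one there. It stood at rank 17017 in replicate 2 and rank 19115 in replicate 3. The strongest summit with an Eip74EF start as the nearest was intronic, with signal 51.5 (pooled rank 3870). The replicates differed there, with rank 9015 in replicate 2 and rank 1662 in replicate 3.

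Eip75B, the third early gene, encodes a haem-binding nuclear receptor that blocks activation by Hr3. It is the longest gene of the set, 113.7 kb of 3L (17950953 to 18064696, minus strand), and was bound both at starts and between them. At the RC start a summit 15 bp upstream had signal 119 in the pooled list (rank 791), 65.4 in replicate 2 (rank 952) and 50.7 in replicate 3 (rank 842), so both replicates placed it near the same rank. At the RD start a summit 89 bp downstream had pooled signal 67.2 (rank 2472), and here the replicates stood apart, at rank 5635 in replicate 2 and rank 1373 in replicate 3. Of the other 5 starts, RG had signal 49.6 (rank 4125), RA had 24.6 (rank 13979), and RF, RE and RB had no pooled summit within 1 kb. The start of the RB isoform and its distal neighbours were thus without pooled summits, while the most strongly bound start was that of RC, in the middle of the gene.

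The 2 remaining Eip75B summits were intronic. They are shown because both hold the same 9-base word, AGATGGCGC on one strand or the other, close to the summit. The word resembles the core of the textbook site of the insulator protein CTCF. Each window is 101 bases centred on the summit, on dm6 and on the strand of the gene, and capitals mark the word, here as its reverse complement.
Eip75B, chr3L:17988303-17988403, minus strand: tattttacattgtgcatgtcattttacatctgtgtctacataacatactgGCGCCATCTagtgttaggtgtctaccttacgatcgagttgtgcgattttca
Eip75B, chr3L:18019793-18019893, minus strand: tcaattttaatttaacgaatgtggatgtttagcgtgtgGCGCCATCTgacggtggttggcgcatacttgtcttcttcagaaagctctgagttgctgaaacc
The first lies 11.47 kb downstream of the RC start and had signal 99.7 in the pooled list (rank 1125), 68.6 in replicate 2 (rank 870) and 26.2 in replicate 3 (rank 3580). The second lies 6.19 kb downstream of the RG start and had signal 66.5 (rank 2521), 40.2 in replicate 2 (rank 2348) and 20 in replicate 3 (rank 6053). The word begins at the summit base of the first and 12 bases before the summit of the second. Both summits were ranked better in replicate 2.

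**Figure D2:**
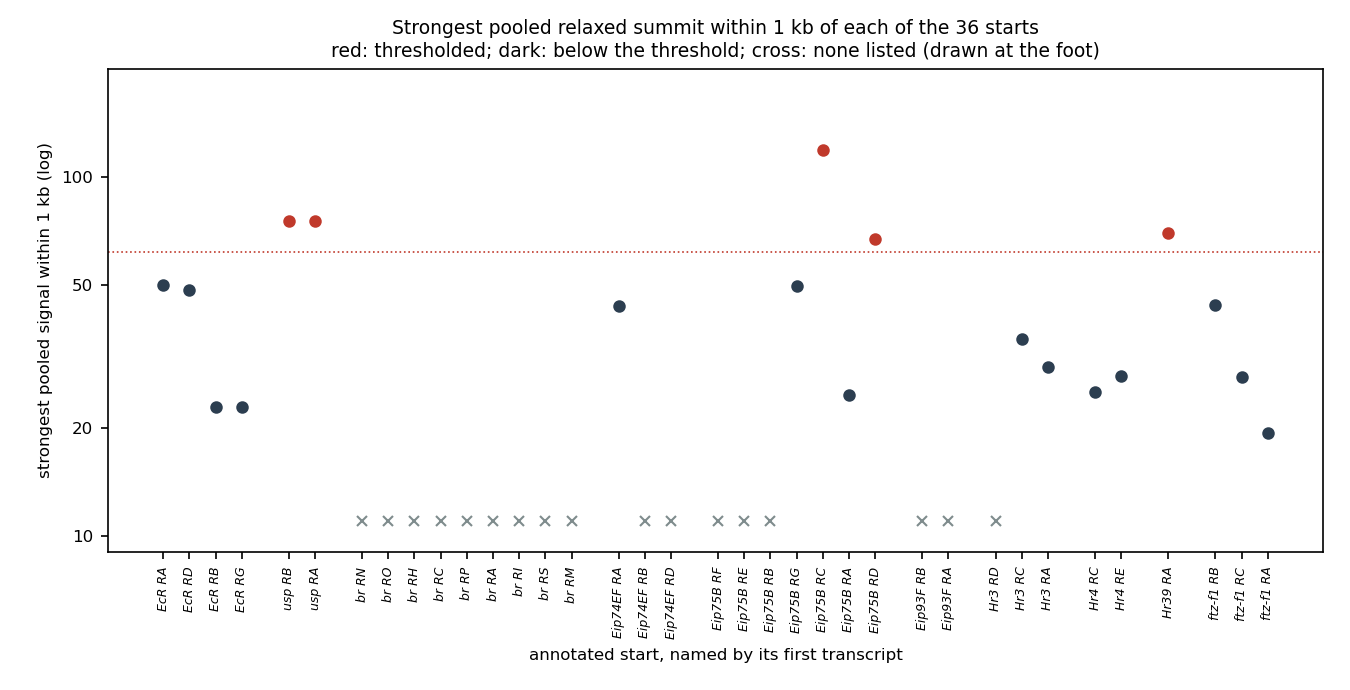
Strongest pooled relaxed summit within 1 kb of each of the 36 annotated starts of the 10 genes. The vertical axis is the authors' pooled signal on a log scale, red points are thresholded, dark points are below the threshold, crosses mark starts with no summit and the dotted line is 61.8. The 5 red points belong to usp, Eip75B and Hr39, and all 9 starts of br and both of Eip93F are crosses.

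Over the 10 genes, 5 of 36 starts (13.9%) had a thresholded summit within 1 kb, against 18.9% of all starts of protein-coding genes. They belonged to usp (2 starts sharing 1 summit), Eip75B (RC and RD) and Hr39, that is, to 3 genes of 10, against 19.7% of all protein-coding genes. The RB start of usp, 812 bp from the summit, is also annotated as a start of Actn. A pooled relaxed summit lay within 1 kb of 19 starts (52.8%), against 64.3% of all starts. The 17 starts without one included the 11 starts of br and Eip93F, and of the 25 starts of the other genes 19 had one. For 13 of the 36 starts (36.1%) no summit was listed within 1 kb in any of the lists, against 26.3% of all starts, and 10 of the 13 belonged to br and Eip93F.

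Eip93F, a late gene whose product acts in the removal of larval tissues and in adult fate, was the emptiest of the set. It spans 65.4 kb of 3R (21949114 to 22014539, plus strand), and no pooled relaxed summit lay inside it. Replicate 2 alone listed 2 weak summits in its introns, at ranks 15244 and 9317, and replicate 3 listed none. The 3 pooled summits of the extended gene all lay beyond its 3′ end. The thresholded one, at 22019245 with signal 129, was 61 bp upstream of a start of Idh3b, a mitochondrial isocitrate dehydrogenase subunit gene, and ranked 884 in replicate 2 and 538 in replicate 3. In both br and Eip93F, then, what passed the threshold lay nearest to the start of another gene.

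The nuclear receptor genes Hr3 and Hr4 carried the strongest peaks of the set, and in both these lay in introns. Hr3 is the fly counterpart of the vertebrate ROR receptors and an activator of ftz-f1. It lies on 2R from 10203995 to 10237348 on the minus strand and has 3 starts. The summit at 10220048, 7.91 kb downstream of the start of RA, RF and RH, had signal 312 in the pooled list (rank 89), 192 in replicate 2 (rank 88) and 115 in replicate 3 (rank 116). It was the strongest of the 24 in every list. The start of these transcripts is also annotated as that of CG46321, which overlaps Hr3 on the same strand, so this summit cannot be given to Hr3 alone.

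The other Hr3 summits were much weaker and less even between replicates. The summit at 10230812, in an intron 2.85 kb upstream of the same start, had signal 70.3, with rank 1664 in replicate 2 and rank 10751 in replicate 3. The summit at 10210894 had signal 63.2, with ranks 2156 and 7218 in replicates 2 and 3. Its nearest protein-coding start was 11183 bp away, but the start of a noncoding RNA gene lay 453 bp away. No Hr3 start had a thresholded summit within 1 kb. Its RD start had no summit within 1 kb in any list, and its RC and RI start, which is also annotated for CG12912, had a pooled signal of 35.4 (rank 7269). The start of RA, RF and RH had a pooled signal of 29.6 (rank 10013), with rank 5857 in replicate 2 and no summit within 1 kb in replicate 3.

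Hr4, an early-late gene of the GCNF type of receptor, had the most summits. It spans 66.0 kb of X (1941940 to 2007956, plus strand) and has 2 starts, neither with a thresholded summit within 1 kb. The strongest relaxed signals there were 25.2 at the distal start (rank 13347) and 27.9 at the proximal start (rank 11122). The 5 intronic thresholded summits lay within 19.6 kb of one another, 2.42, 5.83, 6.75, 9.98 and 22.00 kb downstream of the distal start, and the closest pair were 930 bp apart. Their pooled signals were 72.1, 175, 79.7, 154 and 167 in that order.

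The 3 strong ones were strong in both replicates. The summit at 1947765 had ranks 288 and 622 in replicates 2 and 3, with signals of 114 and 57.1 there. The summit at 1963938 had ranks 339 and 616, and that at 1951918 had ranks 449 and 575. Of the 2 weaker ones, 1948695 stood at ranks 2130 and 1999, while the ranks of 1944355 were 1226 and 6041. The remaining 2 thresholded summits of the window were at neighbours. One had signal 138 and lay between the starts of CG3587 (118 bp away) and CG3857 (149 bp away). The other had signal 97.6 and lay 451 bp upstream of PIG-K, a gene for a subunit of the GPI transamidase. The start of a noncoding RNA gene lay nearer to it, 142 bp away.

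The 3 strong Hr4 windows, 101 bases centred on the summit, are shown as the strongest intronic summits of the set after that of Hr3. The window of the Hr3 summit (signal 312) is not printed. The 3 Hr4 windows held none of the 8 words searched, and so no letter is in capitals.
Hr4, chrX:1947715-1947815, plus strand: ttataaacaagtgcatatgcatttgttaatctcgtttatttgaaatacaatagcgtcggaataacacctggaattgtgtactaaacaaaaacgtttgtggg
Hr4, chrX:1951868-1951968, plus strand: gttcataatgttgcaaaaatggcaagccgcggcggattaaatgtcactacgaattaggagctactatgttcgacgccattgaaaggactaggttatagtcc
Hr4, chrX:1963888-1963988, plus strand: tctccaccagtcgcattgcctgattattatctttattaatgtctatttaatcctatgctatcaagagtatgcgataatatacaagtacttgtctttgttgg
GAGAG, the type of site bound by the GAGA factor, lay further out from the summit at 1963938, in 3 copies that began at offsets of -99, -91 and -83 bases. Neither CAGGTAG nor its relatives lay within 100 bp of any of these 3 summits.

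Hr39 and ftz-f1 encode nuclear receptors of the same branch, related to vertebrate LRH-1 and SF-1. Hr39 (2L, 21237250 to 21259675, plus strand) has 1 start, and its thresholded summit lay 71 bp upstream of it. The signal was 69.8 in the pooled list (rank 2264), 43.4 in replicate 2 (rank 2063) and 23.7 in replicate 3 (rank 4285), and CG31626 starts 446 bp away on the other strand. Hr39 was also the gene with the densest relaxed summits, 8.33 per 10 kb, more than 99.2% of the protein-coding genes of 20 kb or more. Nearly all of these were weak. After the thresholded one the next stood at pooled ranks 3943 and 4303, both beyond the 3′ end near the starts of CG8671 and l(2)k14505.

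In ftz-f1 (3L, 18750607 to 18801309, minus strand) the 3 thresholded summits were all intronic and away from its 3 starts. The strongest, at 18769565, lay 3.82 kb upstream of the start of RC and RD, with signal 89.8 in the pooled list (rank 1428), 63.9 in replicate 2 (rank 995) and 24.7 in replicate 3 (rank 3971). The summits at 18789803 and 18786816, in the first part of the transcript from the RB start, had signals of 65.6 and 64.7. The first of these stood at ranks 3050 and 2969 in replicates 2 and 3, and the second at ranks 1835 and 6245. At the starts themselves the strongest relaxed signals were 43.9 (RB, rank 5036), 27.7 (RC and RD, rank 11268) and 19.3 (RA, rank 21506).

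The bound start of Hr39 and the strongest ftz-f1 window are shown for comparison, as 101 bases centred on the summit on the strand of the gene. The Hr39 window ends before the annotated start, and neither printed window holds a whole searched word.
Hr39, chr2L:21237129-21237229, plus strand: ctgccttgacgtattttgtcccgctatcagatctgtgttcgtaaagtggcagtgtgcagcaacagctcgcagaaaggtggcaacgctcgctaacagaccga
ftz-f1, chr3L:18769515-18769615, minus strand: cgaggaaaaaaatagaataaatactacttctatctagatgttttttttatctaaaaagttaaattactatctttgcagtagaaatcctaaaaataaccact
At Hr39 a GAGAG on the strand of the gene began 49 bases downstream of the summit and ran past the edge of the printed window. The Hr39 window had 52.5% G and C and the ftz-f1 window 23.8%, the highest and the lowest of the windows printed here. Over 201 bases, the 24 windows of the set averaged 40.4% ± 6.06 G and C (SD over 24 windows), against 37.9% ± 6.79 over all 2876 thresholded windows (SD over windows).

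Taking for each gene the strongest pooled summit with an own start nearest gives the order Hr3 (312), Hr4 (175), EcR (122), Eip75B (119), ftz-f1 (89.8), usp (75.6), Hr39 (69.8), Eip74EF (51.5) and br (18.4), with none for Eip93F. The first 2 places held in both replicates at these summits, with Hr3 ahead of Hr4 and Hr4 ahead of the rest. EcR was ahead of Eip75B in replicate 2 (rank 456 against 952) and behind it in replicate 3 (rank 2597 against 842). The summit of usp was behind those of ftz-f1 and Hr39 in replicate 2 (rank 3015 against 995 and 2063) and ahead of both in replicate 3 (rank 925 against 3971 and 4285). Eip74EF was behind all of these in replicate 2 (rank 9015) and ahead of EcR in replicate 3 (rank 1662 against 2597), so the places from EcR to Eip74EF did not hold between the replicates. The br summit stayed behind Eip74EF, at rank 13164 in replicate 2 and with no summit listed there in replicate 3.

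All 24 thresholded summits had a relaxed summit within 200 bp in both replicates (99.1% of all thresholded summits did), and the largest offset was 93 bp. Their ranks in the replicates had a Spearman rho of 0.51 across the 24 summits, against 0.54 across 2851 thresholded summits, given as a description because summits of 1 library are not independent. The disagreement had a direction that followed position. Of the 15 intronic summits away from starts, 13 (86.7%) were ranked better in replicate 2, against 55.6% of all thresholded summits of that kind. Of the 9 summits near a start, 3 (33.3%) were ranked better in replicate 2, against 52.7% of all thresholded summits near a start.

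The median rank of the 15 intronic summits was 995 in replicate 2 and 2969 in replicate 3, against 1516 and 1660 over all such thresholded summits. For the 9 near a start it was 1759 in replicate 2 and 925 in replicate 3, against 1323 and 1324 over all. In replicate 3, 8 of the 15 intronic summits (53.3%) stood beyond rank 2876, against 23.4% of all such thresholded summits. In replicate 2 the count was 1 of 15 (6.67%), against 14.3%. Of the 9 near a start, 2 stood beyond that rank in replicate 2 and 1 in replicate 3, against 12.9% and 18.4% of all thresholded summits near a start. Without Hr4, which gave 5 of the 15, 9 of 10 were ranked better in replicate 2. This split was chosen after the ranks were seen, what set the replicates apart was not tested, and no control reads were analysed here.

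**Figure D3:**
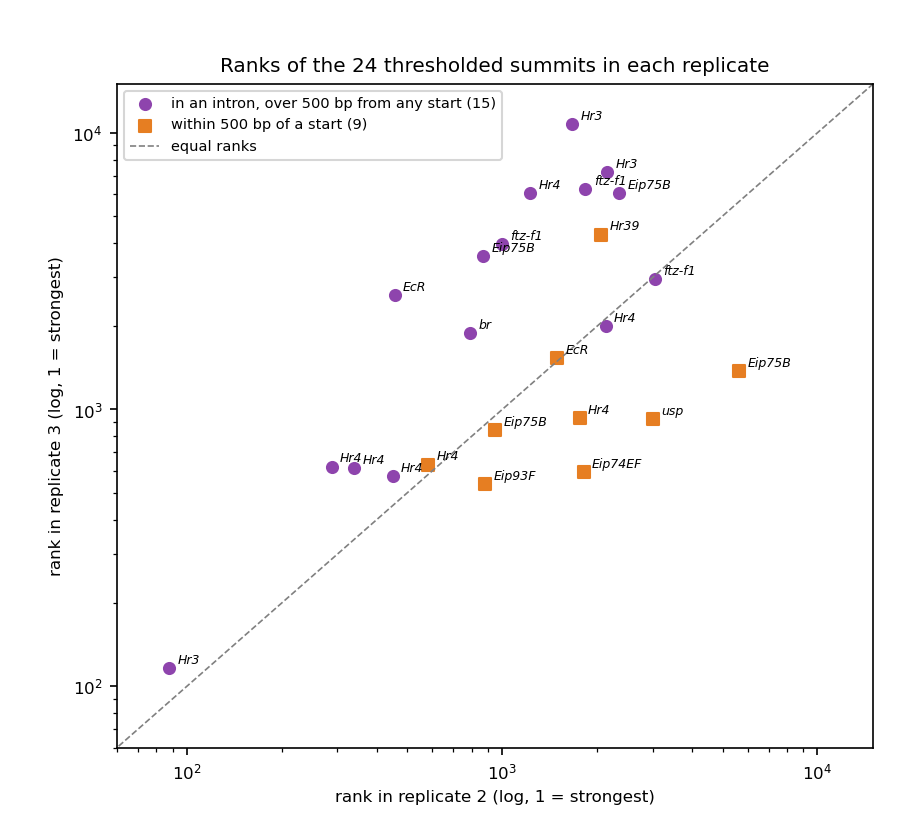
Rank of each of the 24 thresholded summits in replicate 2 (horizontal axis) and replicate 3 (vertical axis), both on a log scale with 1 as the strongest, labelled by gene. Purple circles are the 15 intronic summits over 500 bp from any protein-coding start, orange squares the 9 within 500 bp of such a start, and the dashed line marks equal ranks. Of the circles 13 lie above the line, ranked better in replicate 2, and 6 of the 9 squares lie below it.

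The relaxed lists gave 241 summits in the 10 extended genes in the pooled list, 238 in replicate 2 and 242 in replicate 3. Of the 241, 162 (67.2%) lay in introns and 9 (3.73%) in coding exons. In protein-coding genes of 20 kb or more, extended alike, the shares were 63% and 3.41%. The 241 include the 9 of usp, a gene shorter than 20 kb, of which 0 lay in an intron. Of the 241, 115 (47.7%) had a summit within 200 bp in both replicates, against 44.9% of all pooled relaxed summits. The density ran from 0.398 per 10 kb at Eip93F and 0.501 at br to 8.33 at Hr39, with a median of 4.11 over the 10 genes, against 3.23 over all protein-coding genes. Over the 9 members of 20 kb or more, all but usp, the median was 3.95, against 2.05 over protein-coding genes of that length. EcR had 47 relaxed summits (5.15 per 10 kb) and Eip75B 59 (4.77 per 10 kb), and their replicates gave 43 and 55 at EcR and 58 and 64 at Eip75B. Eip74EF had 2.69 per 10 kb, and usp, Hr3, Hr4 and ftz-f1 lay between 3.69 and 6.66.

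**Figure D4:**
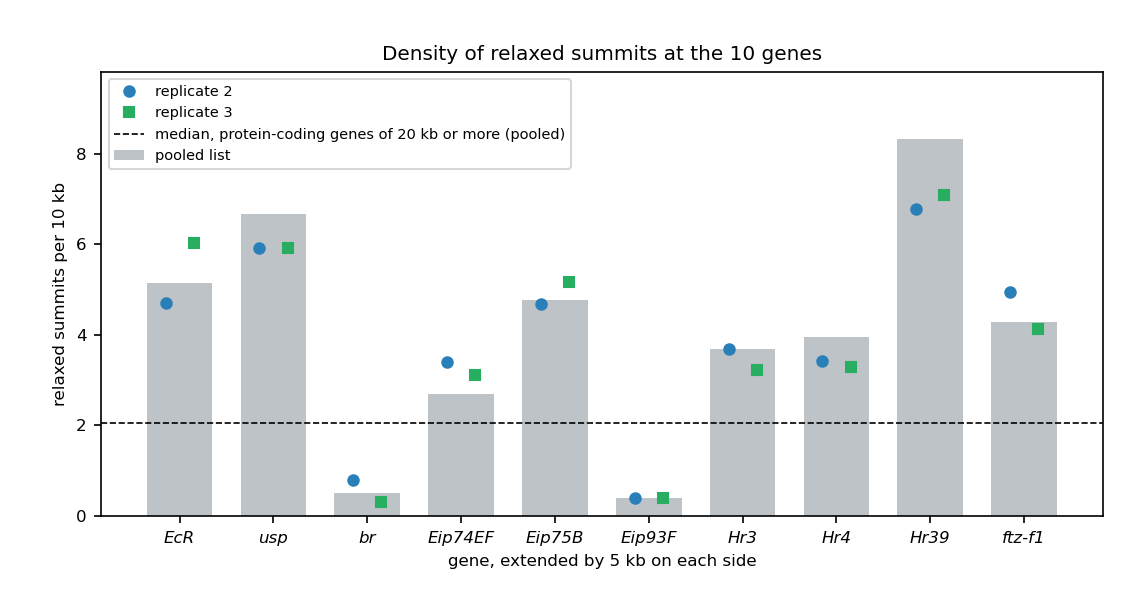
Relaxed summits per 10 kb of each gene extended by 5 kb. Grey bars are the pooled list, blue circles replicate 2 and green squares replicate 3, and the dashed line is the median of 2.05 over protein-coding genes of 20 kb or more. The values for br and Eip93F lie below the line in all 3 lists, between 0.301 and 0.802, and those of the other 8 genes lie above it.

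Just below the threshold, at pooled ranks 2877 to 5752, the set had another 24 summits, 0.834% of all summits at these ranks. The thresholded list, of the same length, also gave 24. Of the 24 just below the threshold, 7 were in Eip75B and 5 in Hr4. One of these Eip75B summits, at 18015339 in an intron 10.7 kb downstream of the RG start, held CAGGTAG within 100 bp and had signal 53.1 (rank 3694), with ranks 3355 and 5708 in replicates 2 and 3. Among them were also the own starts of EcR (RA, RD and RE), Eip75B (RG), ftz-f1 (RB) and Eip74EF (RA, RC and RE), with signals between 43.8 and 49.9.

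The Zelda word itself was not found beside the thresholded summits of these genes. CAGGTAG lay within 100 bp of 0 of 24, which allows a share of up to 12.5% by counting error alone, against 2.02% of all thresholded summits and 3.24% of those farther than 500 bp from a start. Its relatives TAGGTAG and CAGGTAA were at 0 and 1 of the 24 (1.63% and 2.12% of all thresholded summits), the 1 being the summit near PIG-K. Of the 217 relaxed summits of these genes below the threshold, 3 (1.38%) held CAGGTAG, at pooled ranks 3694 and 13979 in Eip75B and 12073 in Hr39, against 1.98% of all pooled relaxed summits. The word occurred 38 times in the 10 extended genes, most often in EcR (10) and Eip75B (8), and 35 of the 38 (92.1%) had no pooled relaxed summit within 100 bp, against 91.4% of all copies on the chromosome arms.

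Of the other words, GAGAG was the most frequent. TATCGATA, the DREF site, was at 1 of 24, the Ars2 promoter beside EcR, against 6.68% of all thresholded summits. GGTCACAC, the M1BP site, and AGGTCA, a core element bound by many nuclear receptors, were each at 0 of 24, against 3.58% and 3.93%. GAGAG was at 6 of 24 (25%) against 23.6%. AGATGGCGC was at 3 of 24 (12.5%), against 1.15% of all thresholded summits, 1.96% of those away from starts and 0.443% of all pooled relaxed summits. It was searched for after it had been noticed in the 2 Eip75B windows printed above, so the 12.5% is a description of windows that prompted the search. Without those 2 windows it was at 1 of 22 (4.55%), the strongest EcR summit, where it began 45 bases from the summit, and nothing is read from 1 match. All words were searched on both strands, and a match is only a run of letters.

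Among other genes, those most like Hr4 by number of thresholded summits in the gene extended by 5 kb (7, from the 1 list of both replicates) and then by length were lola (61.4 kb), CG14434, CG44838, CG3552 and CG3437, with 7 each. CG44838, CG3552 and CG3437 are neighbours and share summits. In all, 16 protein-coding genes, 0.115%, had 7 or more, and 12 of these were among the 1020 genes of 20 kb or more (1.18% of them).

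Other genes of the ecdysone pathway and other nuclear receptor genes were counted in 5 lists. The nuclear receptor genes were taken as a family, not as members of the pathway. Eip78C stands both among the other ecdysone-inducible genes and among the other nuclear receptor genes. Of 8 ecdysteroid synthesis genes, 0 had a thresholded summit within 1 kb of a start, and nvd and spok, which act early in the synthesis, had no pooled relaxed summit in the gene extended by 5 kb. Of 5 genes of hormone uptake, export, breakdown and timing, 1 had a thresholded summit within 1 kb of a start. This was E23, which encodes an ABC transporter, with signal 313 (rank 88) and ranks 110 and 65 in replicates 2 and 3. The importer gene EcI (Oatp74D) and Cyp18a1, the gene of a hormone-inactivating enzyme, had no thresholded summit within 1 kb of a start.

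Of 8 partners and coregulators only tai, the steroid receptor coactivator gene, was bound within 1 kb of a start, with signal 118 (rank 808) and ranks 809 and 1138, while Smr and trr were not. Of 12 other ecdysone-inducible genes 2 were bound, vri with signal 87.6 and Eip63F-1 with signal 81.0, while Eip78C and Eip55E (Cth) were not. Of 14 other nuclear receptor genes Hr96 (signal 232, rank 181, ranks 150 and 306 in replicates 2 and 3) and ERR (signal 120, rank 784, ranks 862 and 839) were bound, while Hr38 and Hr51 were not. These counts stand beside the 19.7% of all protein-coding genes. With a summit anywhere in the gene extended by 5 kb the counts were 1 of 8, 3 of 5, 3 of 8, 7 of 12 and 4 of 14, beside 40.7%.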

How the data were processed

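Chromatin immunoprecipitation peaks of tagged Zelda were analysed from 2 biological replicates of 1 group. The deposited files are narrowPeak lists on dm3 and dm6. Per the readme text deposited with them, each relaxed list came from alignments with a control alignment, and the thresholded list from the relaxed lists of replicate 2, replicate 3 and both together. The aligner, the peak caller and the reproducibility cut were not given in the sources used here. The deposited signal of each peak has no stated scaling and was ranked within a list. The deposited −log10 q values reached a ceiling of 3.94 at all thresholded peaks and were not used to rank. Depth is unknown.

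Summits are the peak start plus the deposited offset. Genes and starts came from Ensembl release 115 (BDGP6.54) and sequence from the NCBI Release 6 assembly, both dm6. The dm3 lists were not analysed here, as no dm3 gene models were given. Symbols of 4 pathway genes were matched through NCBI synonyms. Summits within 200 bp were matched between lists by the strongest, and words were searched within 100 bp. Counts were checked on simulated summits. Python 3.11.15 with numpy 2.4.6, scipy 1.17.1 and matplotlib 3.10.9 was used.

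No test between groups was possible, and shares are given beside those of all genes or peaks. Limits on shares cover counting error only. The members, lists and words were chosen with earlier results of these data known. All thresholded summits of members are named. From each of the other gene lists, the genes bound within 1 kb of a start, at most 4, and the first 2 not bound in list order are named. The 5 genes most like the member with the most summits are named as well.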

Additional observations from a re-analysis of the deposited data

How the results depend on the processing

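No paired analysis was possible because there was 1 group and no contrast. Of 42 recomputed values 31 kept their size (counts within 1.5 times, or a percent within the SD of the replicates). All 10 genes kept a thresholded summit with an extension of 10 kb, 8 with 2 kb and 7 with none. With the strongest 1438 thresholded peaks alone, 8 genes had a summit, the genes held 14 summits in place of 24, 8 in place of 17 had an own start nearest, and 1 gene in place of 3 was bound within 1 kb of a start (Eip75B). With each replicate's strongest 2876 peaks alone, summits with an own start nearest numbered from 11 (replicate 3) to 17 (replicate 2), and usp had no summit in replicate 2. When starts of all annotated genes counted, noncoding genes and transposons included, 10 in place of 17 had an own start nearest, since the intronic EcR summit was nearer to a tRNA gene and 3 Hr4, 1 Eip75B and 2 ftz-f1 summits to noncoding, pseudogene or transposon starts. The share of all protein-coding genes with a thresholded summit was 8.34% with no extension, 29.3% with 2 kb, 53.3% with 10 kb and 25.5% with the strongest 1438 peaks, and from 40.3% to 40.5% with each replicate alone, in place of 40.7%. CAGGTAG stayed at 0 summits in every alternative run. The dm3 alternative was not run. Without read counts, a start with no listed summit may be bound below what the lists hold.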
